A study of Mus musculus with 18 samples.

Results

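The genes described here serve the endoplasmic reticulum (ER), where secreted and membrane proteins are folded and glycosylated: 42 genes of ER folding, of the unfolded protein response and of entry into the secretory pathway. They were taken from a list of gene symbols, set by function, and matched by name in allele-specific count tables of mouse B cells. No threshold on a measured value entered the list, although earlier results of these data were known when it was drawn up. Of the 42, 40 were in the tables of the 129 allele, which hold 40327 genes, and 41 were in the tables of the Cast allele, which hold 39147 genes. Sec61b was in neither by that name and Ero1lb was in the Cast tables only.

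A protein that is to be secreted is passed through the Sec61 channel into the ER, loses its signal peptide to the signal peptidase, receives N-glycans from the oligosaccharyltransferase, and is folded by the Hsp70 chaperone BiP, the Hsp90 chaperone GRP94, the lectin chaperones calnexin and calreticulin, and the protein disulfide isomerases. Chains that fail to fold are returned to the cytosol and degraded (ER-associated degradation). The sensors IRE1, PERK and ATF6 report unfolded protein and adjust translation and transcription, a system that B cells also use when they prepare to secrete antibody.

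The series profiled RNA of female mouse cells, and 6 of its 18 samples are used here: splenic CD23+ B cells (follicular B cells carry CD23, the low-affinity IgE receptor) of F1 129S1/Cast; Xist+/- animals, 3 without treatment (naive) and 3 treated in vitro with CpG, a Toll-like receptor 9 ligand, at 1 µM for 24 h. All 6 samples share the Xist+/- genotype, and per the labels the Cast X is the inactive X in all of these cells. Age, and whether the naive cells were also kept in culture, are not given in the sources used here, so CpG and culture cannot be told apart. The other 12 samples, B6/Cast F1 B cells and ear fibroblasts, were not analysed here. Reads that could be assigned to 1 of the parental genomes were counted for each allele, and levels are given as CPM, the reads of a gene scaled to a common library size after normalization by the trimmed mean of M values (TMM). CPM is not corrected for gene length, so levels are compared between samples and not between genes. The labels do not say which samples came from which animals, so p-values measure the spread between these samples.

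Each sample held between 1987266 and 2928236 gene reads on the 129 allele and between 2465073 and 3321753 on the Cast allele. Reads that fell in no gene were 62.6 to 67.1% of aligned reads in naive and 48.1 to 56.7% in CpG samples on 129, and 57.9 to 62.1% and 44.5 to 52.3% on Cast. This share, too, separates the groups in every contrast, and its part in the results was not tested. The B cell label was checked on Fcer2a, which encodes CD23, and Cd79a, a signalling chain of the B cell receptor. On the 129 allele Fcer2a ran from 274 to 489 CPM in naive and from 6.47 to 11.3 CPM in CpG samples, and Cd79a from 1061 to 1126 CPM and from 211 to 283 CPM. Both were present in all 6 samples and lower in every CpG sample. A list of 16 macrophage markers, 15 of them in the tables, summed to between 3042 and 6295 CPM in the naive samples and to between 6.03 and 10.8 CPM after CpG on the 129 allele, with 14 lower in every CpG sample and 2 without a read after CpG. On the Cast allele the same sums were 2472 to 5301 CPM and 6.78 to 9.47 CPM. This difference runs with every contrast below, and its part in the changes of the ER genes was not tested. The summed plasma cell markers ran from 299.9 to 471 CPM in naive and from 257 to 329 CPM in CpG samples on the 129 allele, and its members went both ways: of 5 tested, Prdm1 (3.58) and Tent5c (1.98) rose and Jchain (-2.39), Slamf7 (-1.09) and Irf4 (-0.51) fell on the log2 scale. On Cast 4 of 5 passed, Irf4 being the exception at 0.11. Their part in the changes of the ER genes was not tested. T cell, neutrophil, erythroid and natural killer or dendritic cell markers summed to at most 109.8 CPM in any library. On 129 the T cell sums were 42.8 to 53.2 CPM in naive and 4.32 to 8.86 CPM in CpG samples. Neutrophil and monocyte sums were 22.4 to 32.1 CPM and 1.42 to 3.49 CPM. Erythroid sums were 43.2 to 109.8 CPM and 1.06 to 1.44 CPM. On Cast these sums were also lower in every CpG sample. Natural killer or dendritic cell sums overlapped between groups on 129 and not on Cast. The part of these markers in the changes of the ER genes was not tested. In bulk RNA, fewer cells of a type and less RNA per cell cannot be told apart.

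The promoters are shown first because several of these genes share a sequence through which ATF6 and the IRE1 product XBP1 act, the ER stress response element (ERSE). RefSeq windows from 250 bases before to 50 after the transcription start (build GRCm38.p6, C57BL/6J sequence, not that of the 129 or Cast alleles) were matched for 34 of the 42 genes. ERSE was searched on both strands as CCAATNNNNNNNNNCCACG, ERSE-II as ATTGG and CCACG 1 base apart, the core of the unfolded protein response element as TGACGTG and the amino acid response element as TTGCATCA. The ERSE letters were in windows of 9 of the 34 genes (26.5%) and of 37 of 27025 genes in the whole promoter table (0.137%, or 0.119% of windows). ERSE-II was in 5.88% of the 34 and 0.0444% of all genes, the TGACGTG core in 2.94% and 2.22%, and TTGCATCA in 2.94% and 1.03%. The list and the motifs were both chosen for the ER stress response, so these shares describe the sequences and are not a test of the list. None of the matches in these genes overlapped another. The 10 ERSE matches are listed in the motif's own orientation, with the fixed letters in capitals.
Calr, chr8:84847075-84847093, gene on the minus strand: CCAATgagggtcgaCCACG
Canx, chr11:50325800-50325818, gene on the minus strand: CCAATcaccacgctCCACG
Creld2, chr15:88819520-88819538, gene on the plus strand: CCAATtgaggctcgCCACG
Dnajc3, chr14:118937827-118937845, gene on the plus strand: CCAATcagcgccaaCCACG
Ero1lb, chr13:12565682-12565700, gene on the plus strand: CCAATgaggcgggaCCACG
Hsp90b1, chr10:86705638-86705656, gene on the minus strand: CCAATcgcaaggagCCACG
Hsp90b1, chr10:86705533-86705551, gene on the minus strand: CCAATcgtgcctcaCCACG
Hspa5, chr2:34772025-34772043, gene on the plus strand: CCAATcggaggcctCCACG
Pdia6, chr12:17266491-17266509, gene on the plus strand: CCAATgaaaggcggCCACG
Syvn1, chr19:6046532-6046550, gene on the plus strand: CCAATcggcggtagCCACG

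In Hspa5 the element ended 47 bases before the start, in Syvn1 26 bases before it, and in Ero1lb 183 bases before it. Hsp90b1 held 2 elements, on opposite strands. ERSE-II was found in Herpud1, 42 to 52 bases before the start, and in Dnajb11, 8 to 18 bases after it, with the fixed letters again in capitals.
Dnajb11, chr16:22857852-22857862, gene on the plus strand: ATTGGcCCACG
Herpud1, chr8:94386377-94386387, gene on the plus strand: ATTGGgCCACG

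Herpud1 also held TTGCATCA, a sequence bound by ATF4 with its partners, 105 to 112 bases before the start, and Hspa5 held TGACGTG 151 to 157 bases before it. The 250 bases upstream of the start are given for 3 genes: Hspa5 and Hsp90b1, which encode the Hsp70 and Hsp90 of the lumen and rose after CpG, and Syvn1, which holds the same element and fell. Capitals mark the matches, read on the strand of the gene.
Hspa5 promoter, chr2:34771840-34772089, plus strand: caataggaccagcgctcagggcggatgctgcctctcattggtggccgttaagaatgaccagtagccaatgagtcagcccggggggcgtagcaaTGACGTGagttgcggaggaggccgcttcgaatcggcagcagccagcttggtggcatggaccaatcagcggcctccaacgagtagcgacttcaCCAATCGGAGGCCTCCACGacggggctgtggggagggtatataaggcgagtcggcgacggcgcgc
Hsp90b1 promoter, chr10:86705445-86705694, minus strand: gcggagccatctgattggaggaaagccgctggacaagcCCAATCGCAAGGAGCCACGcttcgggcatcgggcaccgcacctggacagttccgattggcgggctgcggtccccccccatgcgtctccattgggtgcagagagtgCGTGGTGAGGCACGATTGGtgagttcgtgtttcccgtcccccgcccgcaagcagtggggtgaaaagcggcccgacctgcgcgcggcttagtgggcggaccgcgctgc
Syvn1 promoter, chr19:6046326-6046575, plus strand: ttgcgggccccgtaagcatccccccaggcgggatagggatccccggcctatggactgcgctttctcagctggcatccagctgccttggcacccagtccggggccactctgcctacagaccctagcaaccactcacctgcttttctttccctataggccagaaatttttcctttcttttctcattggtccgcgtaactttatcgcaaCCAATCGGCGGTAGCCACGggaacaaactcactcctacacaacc

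Of the 9 genes with an ERSE, 6 rose on the sum of both alleles (Calr, Canx, Dnajc3, Hsp90b1, Hspa5 and Pdia6) and 1 fell (Syvn1), while Creld2 and Ero1lb were not tested on the sum. Beside this, 29 of all 39 ER genes tested rose on the sum, and 68.7% of all 10343 genes passed in either direction. The share of all genes that rose on the sum is not given here. On the single alleles 28.2% of all genes passed as higher on 129 and 30.7% on Cast. A match of letters describes the sequence and is not a measurement of factor binding.

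After 24 h of CpG most of the measured ER genes were higher on both alleles. Of 39 genes tested on the 129 allele, 28 changed at an adjusted p below 0.05, 24 of them higher and 4 lower (edgeR quasi-likelihood test, Benjamini-Hochberg adjustment over all 10581 genes with enough reads). The background was high: 55.2% of all tested genes passed, 28.2% higher and 27% lower. The share among the ER genes was 71.8%, with a median log2 fold change of 1.06 beside -0.01 over all genes. On the Cast allele 29 of 39 passed, 27 higher and 2 lower, beside a background of 62.2% (30.7% higher and 31.5% lower), and the median was 1.16 beside -0.04. Groups did not overlap for 28 of 39 genes on the 129 allele (64.8% of all genes) and for 31 of 39 on the Cast allele (68.5%), so that count alone sits near the background. Of 38 genes tested on both alleles, 25 passed on both, all in the same direction, 23 higher and 2 lower. Creld2, an ER-resident protein induced by ER stress, had at most 4 reads in any sample and was not tested.

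**Figure D1:**
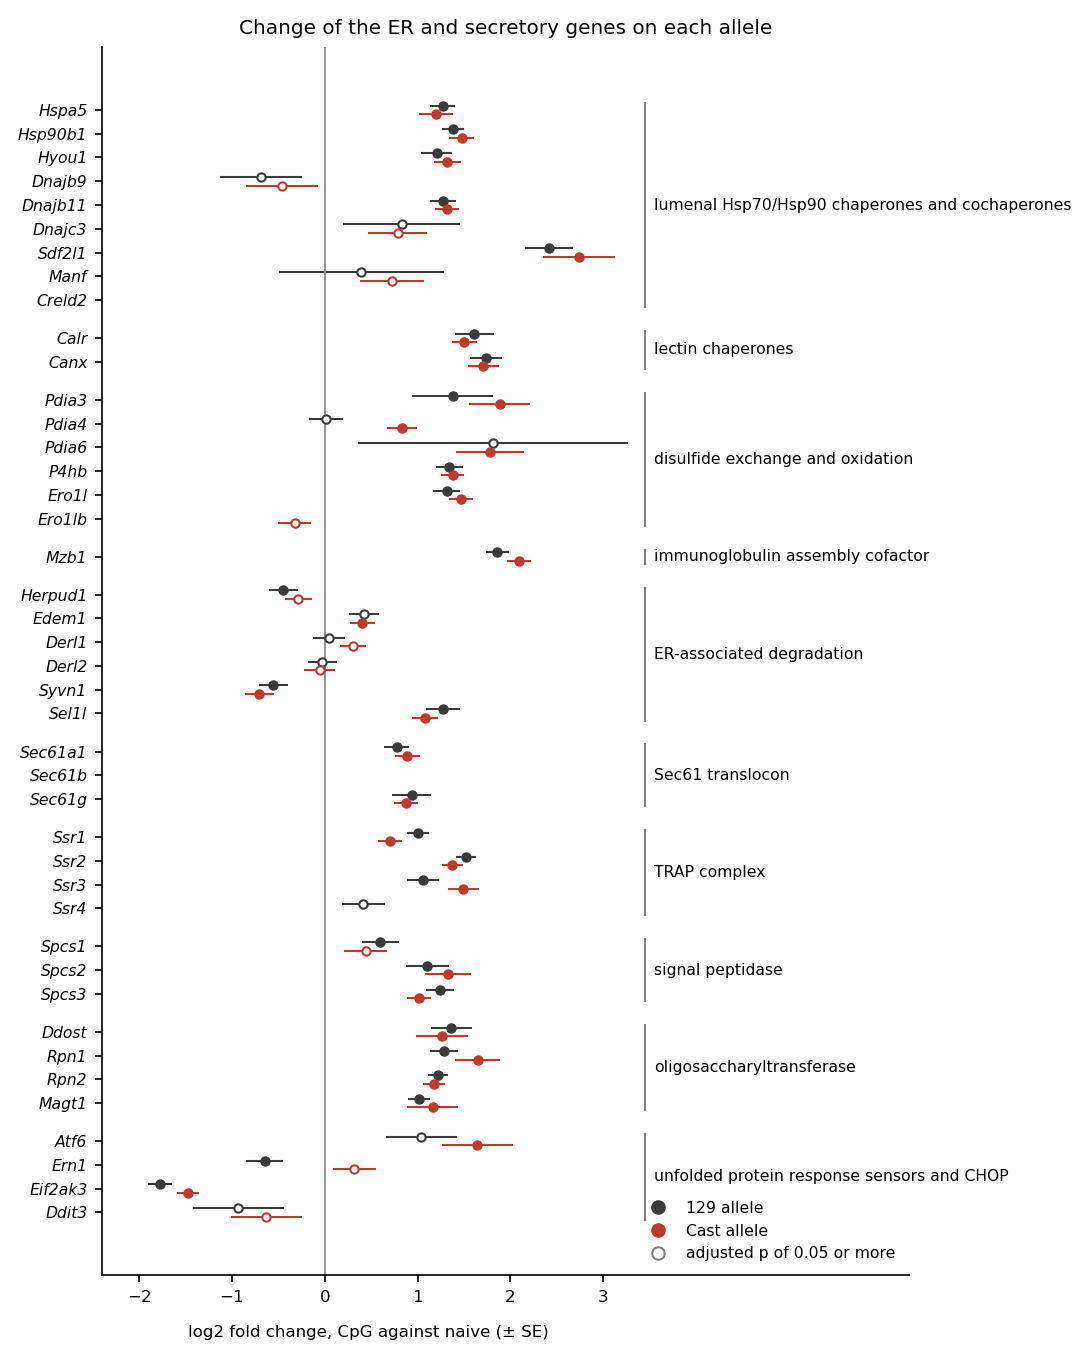
Log2 fold change of CpG against naive samples (x axis, ± SE from the edgeR fit, 3 samples a group) for each gene, grouped by role, on the 129 and Cast alleles, with open circles for an adjusted p of 0.05 or more. Chaperones, the translocon, signal peptidase and oligosaccharyltransferase lie mostly right of 0, and Eif2ak3 at -1.78 and -1.48 lies farthest to the left.

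The samples with the same replicate number varied together, so the fit was also made with the number as a block. It called 33 of 39 genes on the 129 allele (28 higher and 5 lower, background 65.1%) and 32 of 39 on the Cast allele (29 higher and 3 lower, background 66.3%). When the reads of both alleles were summed, an alternative added after seeing the data, 32 of 39 genes passed (29 higher and 3 lower, background 68.7%), and 34 with the block (30 higher and 4 lower, background 70.3%).

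Hspa5 encodes BiP, the Hsp70 of the ER lumen that binds unfolded chains and holds the stress sensors inactive. On the 129 allele it stood at 114, 87.3 and 113 CPM in naive samples 1 to 3 and at 257, 242 and 257 CPM in CpG samples 1 to 3. On the Cast allele the values were 95.3, 66.4 and 110.0 CPM and 232, 186 and 206 CPM. The groups did not overlap on either allele, and the log2 fold change was 1.27 (SE 0.13, adjusted p = 1.90e-04) on 129 and 1.20 (SE 0.19, adjusted p = 4.13e-04) on Cast.

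Hsp90b1 encodes GRP94, the ER Hsp90, whose clients include Toll-like receptors. It rose from 157, 126 and 139.9 CPM to 376, 346 and 381 CPM on the 129 allele. On the Cast allele it rose from 90.0, 78.3 and 92.8 CPM to 264, 244 and 217 CPM. Every CpG sample was above every naive sample, with log2 fold changes of 1.38 (SE 0.12, adjusted p = 7.76e-05) and 1.47 (SE 0.13, adjusted p = 1.31e-05). Hyou1, the nucleotide exchange factor of BiP, rose by a log2 fold change of 1.21 on 129 and 1.32 on Cast. Dnajb11, the BiP cochaperone ERdj3, rose by 1.27 and 1.31.

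Sdf2l1, a partner of the BiP cycle that binds ERdj3, had the largest fold change among the ER genes called on each allele. It was at 12.9, 6.65 and 9.53 CPM in naive and at 52.9, 49.98 and 53.4 CPM in CpG samples on the 129 allele. Its Cast values were 6.78, 1.80 and 3.87 CPM and 33.1, 24.4 and 26.0 CPM. All CpG samples lay above all naive samples, a fold change of 5.35 on 129 (adjusted p = 1.99e-04) and of 6.67 on Cast (adjusted p = 2.25e-04), the latter resting on 5 to 18 reads in the naive samples.

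Dnajb9 (ERdj4), a target of XBP1 that restrains IRE1, did not pass on either allele. Its 129 values were 39.6, 16.2 and 44.1 CPM in naive and 27.7, 12.4 and 21.6 CPM in CpG samples, and its Cast values were 13.6, 5.41 and 15.0 CPM and 8.82, 7.40 and 8.29 CPM. Replicate 2 was the lowest of its group each time, and the groups overlapped. The log2 fold changes were -0.69 (adjusted p = 0.220) and -0.46 (adjusted p = 0.326). With the replicate number as a block the 129 value passed at -0.66 (adjusted p = 0.0179), and the Cast value did not.

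Dnajc3 (P58IPK), a lumenal cochaperone, and Manf, a factor that binds BiP and is secreted under stress, differed strongly by replicate. On the 129 allele Dnajc3 was at 62.8, 54.0 and 20.1 CPM in naive and at 117, 99.2 and 28.6 CPM in CpG samples. The Cast allele gave 57.3, 45.8 and 84.2 CPM and 98.6, 65.7 and 157 CPM. Replicate 3 was the lowest on 129 and the highest on Cast in both groups, while within each number the CpG sample was the higher. The groups overlapped on both alleles, and Dnajc3 did not pass without the block (adjusted p = 0.311 and 0.0578). It passed with the block, at a log2 fold change of 0.80 on 129 (adjusted p = 4.55e-04) and 0.74 on Cast (adjusted p = 3.02e-04).

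Manf was at 3.01, 3.74 and 17.5 CPM in naive and 5.75, 4.25 and 21.3 CPM in CpG samples on the 129 allele, from 7 to 61 reads. Cast levels were 14.3, 18.8 and 11.6 CPM and 30.3, 30.8 and 13.3 CPM. Here replicate 3 was the highest on 129 and the lowest on Cast, and the groups overlapped on both. The log2 fold change was 0.40 on 129 (adjusted p = 0.730) and 0.73 on Cast (adjusted p = 0.0963), and with the block the Cast value passed (0.70, adjusted p = 0.0231). The 129 value turned to -0.67 without CpG replicate 3 and to -0.00306 without naive replicate 1.

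**Figure D2:**
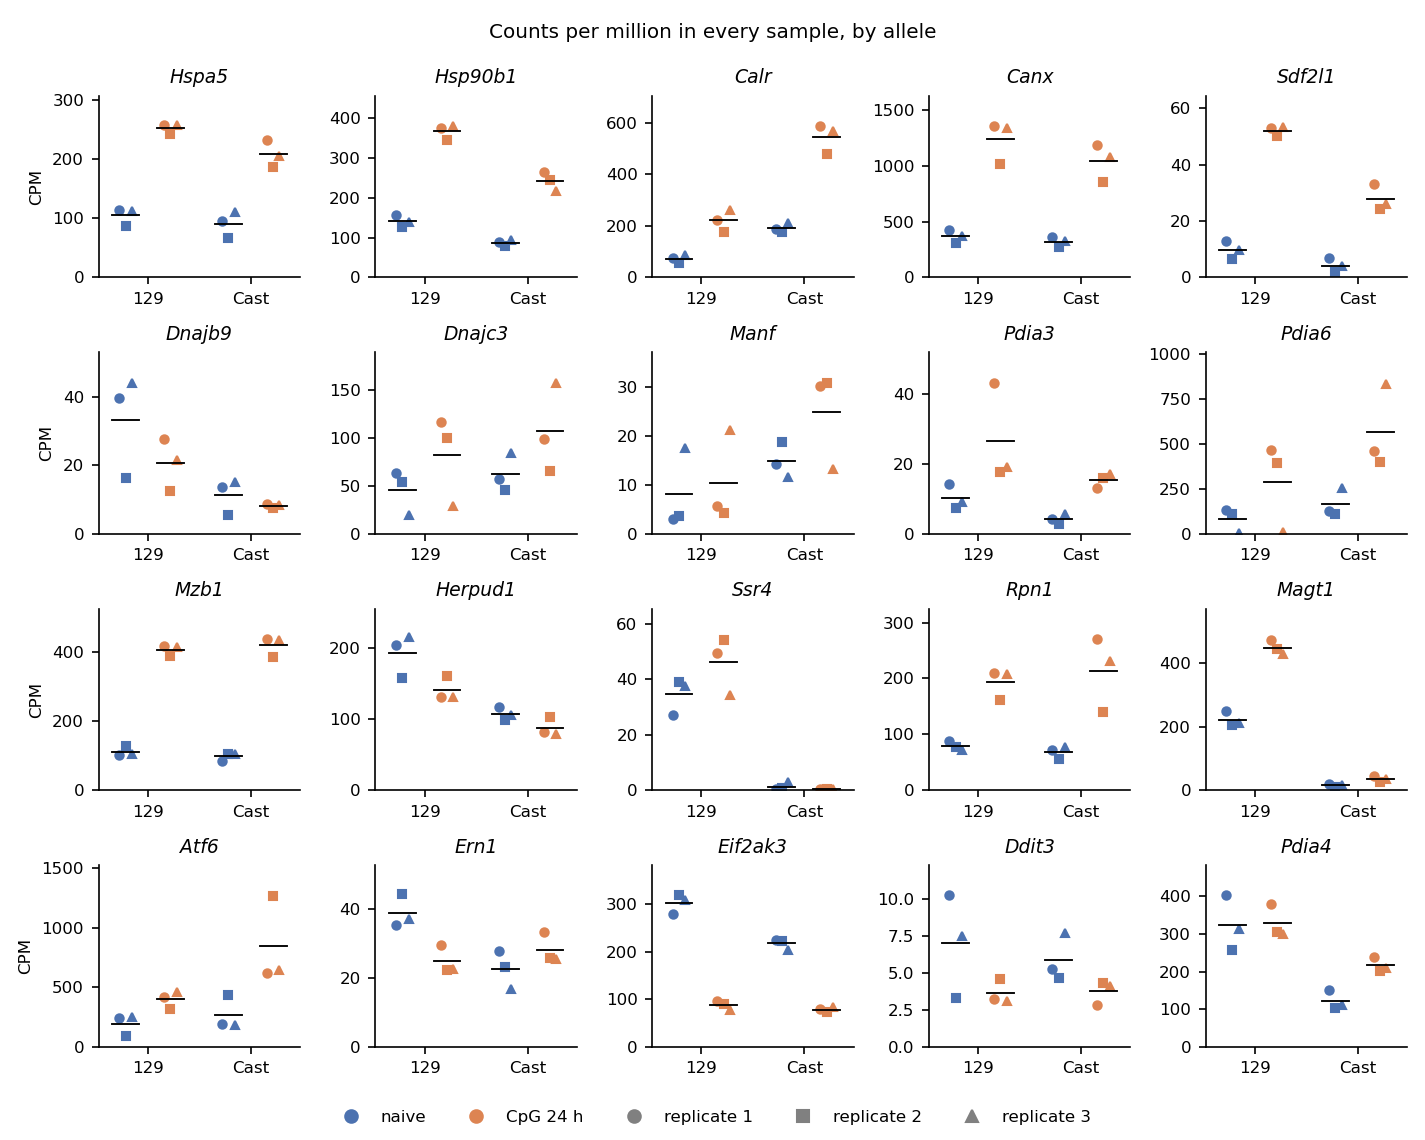
CPM (y axis, linear from 0) of 20 of the genes in each of the 6 samples on the 129 and Cast alleles, with a marker shape for each replicate number and a bar at the mean of 3 samples. Hspa5, Canx, Mzb1 and Eif2ak3 separate cleanly by group. Pdia6, Dnajc3, Manf and Atf6 separate by replicate number, and the groups overlap for Dnajc3 and Manf on both alleles and for Pdia6 on 129.

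The lectin chaperones, which hold glycoproteins in a folding cycle, rose on both alleles. Calr (calreticulin, the lumenal form) rose from 76.2, 55.7 and 85.7 CPM to 223, 178 and 263 CPM on the 129 allele. Its Cast values rose from 188, 177 and 212 CPM to 587, 479 and 568 CPM. No CpG sample reached down to a naive one, and the log2 fold changes were 1.61 (SE 0.21) and 1.50 (SE 0.14). Canx (calnexin, the membrane form) rose from 426, 311 and 372 CPM to 1359, 1012 and 1337 CPM on 129. On Cast it rose from 361, 268 and 323 CPM to 1182, 857 and 1074 CPM. Replicate 2 was the lowest in both groups and on both alleles, and the groups stayed apart (log2 fold changes of 1.74 and 1.71, adjusted p = 1.37e-04 and 2.38e-05).

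Of the disulfide genes, P4hb (protein disulfide isomerase itself) rose by 1.34 and 1.38 on the log2 scale and Ero1l, the oxidase that recharges it, by 1.31 and 1.46. Pdia6, the isomerase P5, was at 129.9, 108 and 7.02 CPM in naive and 466, 391 and 10.8 CPM in CpG samples on the 129 allele. Its Cast levels were 126, 110.4 and 257 CPM and 458, 402 and 835 CPM. Replicate 3 had almost no 129 reads in either group (14 and 31) and the highest Cast level, so that the groups overlapped on 129 and not on Cast. The 129 fold change was 1.81 on the log2 scale with an SE of 1.46 and did not pass (adjusted p = 0.340), whereas the block gave 1.72 (adjusted p = 6.42e-07). The Cast value passed without it (1.78, adjusted p = 0.00225).

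Pdia3 (ERp57), which works with the lectin chaperones, was at 14.2, 7.48 and 9.03 CPM in naive and 43.2, 17.7 and 19.2 CPM in CpG samples on 129. The Cast values were 4.14, 2.89 and 5.58 CPM and 13.2, 16.0 and 17.2 CPM. CpG replicate 1 was the highest 129 sample, and the groups did not overlap. Both alleles passed (1.38, adjusted p = 0.0296, and 1.89, adjusted p = 8.09e-04), and the 129 call was lost without naive replicate 2, naive replicate 3 or CpG replicate 1 (adjusted p up to 0.0953). Ero1lb, the second oxidase, was on Cast alone at 446, 698 and 511 CPM in naive and 442, 494 and 383 CPM in CpG samples. The groups overlapped, and the value of -0.33 did not pass (adjusted p = 0.144) unless blocked (-0.31, adjusted p = 0.0476).

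Mzb1 (pERp1), a B cell cofactor of GRP94 in the assembly of immunoglobulin M, rose on both alleles. It went from 103, 127 and 105 CPM to 418, 388 and 413 CPM on 129. On Cast it went from 85.9, 104 and 105 CPM to 438, 386 and 434 CPM. The groups were far apart, with log2 fold changes of 1.86 (SE 0.12, adjusted p = 2.57e-05) and 2.09 (SE 0.13, adjusted p = 2.18e-06).

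The 6 degradation genes did not move together: on each allele 3 of 6 passed, a share below the background of 55.2% on 129 and 62.2% on Cast, and in opposite directions. Sel1l, the scaffold of the HRD1 ubiquitin ligase, rose by 1.28 on 129 and 1.08 on Cast, while Syvn1, which encodes the ligase HRD1 itself, fell by 0.55 and 0.70 (adjusted p = 0.0165 and 0.00332). Syvn1 was at 83.5, 71.9 and 93.3 CPM in naive and 54.7, 52.5 and 62.1 CPM in CpG samples on 129, and at 84.8, 75.4 and 87.2 CPM and 52.6, 57.1 and 42.02 CPM on Cast. Its groups did not overlap, and the 129 call was lost without naive replicate 3 or CpG replicate 1 (adjusted p up to 0.0625).

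Herpud1, a stress-induced adaptor of the same ligase, was at 204, 157 and 215 CPM in naive and 132, 160.2 and 131 CPM in CpG samples on 129. On Cast it was at 118, 98.1 and 106 CPM and at 81.9, 102 and 79.6 CPM. Replicate 2 was the lowest naive and the highest CpG sample, and the groups overlapped on both alleles. The 129 value passed narrowly (-0.45, adjusted p = 0.0422), was lost without replicate 1 or 3 of either group (adjusted p up to 0.135), and did not pass with DESeq2 (adjusted p = 0.0702). The Cast value was -0.29 (adjusted p = 0.114). Edem1, a lectin that marks misfolded glycoproteins, gave 0.42 on 129 (adjusted p = 0.0572, and 0.0152 with the block) and 0.40 on Cast (adjusted p = 0.0257, lost without naive replicate 3, CpG replicate 1 or CpG replicate 3, at up to 0.0806). The Derlin genes Derl1 and Derl2 passed on neither allele, with values from -0.05 to 0.30.

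The genes of entry into the ER rose on both alleles, Spcs1 on Cast and Ssr4 excepted. Of the translocon, Sec61a1 (the channel) rose by 0.78 and 0.89 and Sec61g by 0.94 and 0.88 on the log2 scale. Of the translocon-associated TRAP complex, Ssr1 rose by 1.00 and 0.70, Ssr2 by 1.52 and 1.37, and Ssr3 by 1.06 and 1.49, while the X-linked Ssr4 is described below. Of the signal peptidase, Spcs2 rose by 1.10 and 1.32 and Spcs3 by 1.24 and 1.02. Spcs1 rose on 129 (0.60, adjusted p = 0.0346) and did not pass on Cast (0.44, adjusted p = 0.121). Its 129 call was lost when any sample but CpG replicate 1 was left out (adjusted p up to 0.105).

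All 4 oligosaccharyltransferase genes rose on both alleles. Rpn1 (ribophorin I) rose from 87.3, 77.7 and 72.7 CPM to 209.7, 162 and 207 CPM on 129. Its Cast values rose from 71.2, 56.6 and 77.3 CPM to 271, 139.7 and 231 CPM. CpG replicate 2 was the lowest of its group on both alleles and still above each naive sample (log2 fold changes of 1.28 and 1.65). Rpn2 rose by 1.22 and 1.18, and Ddost by 1.36 and 1.26.

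The stress sensors themselves diverged. Eif2ak3 encodes PERK, the kinase that phosphorylates eIF2α and slows translation. It fell from 279, 319.9 and 309 CPM to 97.5, 90.4 and 77.1 CPM on 129, and from 226, 222 and 205 CPM to 79.1, 72.5 and 82.9 CPM on Cast. Every CpG sample lay far below every naive sample, with log2 fold changes of -1.78 (SE 0.13, adjusted p = 3.55e-05) and -1.48 (SE 0.12, adjusted p = 7.30e-06). Atf6, the sensor that is cleaved in the Golgi to release a transcription factor, was at 242, 93.5 and 246 CPM in naive and 419, 314 and 463 CPM in CpG samples on 129. On Cast it was at 194, 434 and 181 CPM and at 618, 1266 and 647 CPM. Replicate 2 was the lowest on 129 and the highest on Cast in both groups, and the groups did not overlap. The Cast value passed (1.64, adjusted p = 0.00468). The 129 value passed with the block (1.13, adjusted p = 2.43e-04) and not without it (1.04, adjusted p = 0.0584).

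Ern1 encodes IRE1α, the nuclease that splices Xbp1 RNA. On the 129 allele it was at 35.3, 44.5 and 37.1 CPM in naive and 29.5, 22.3 and 22.7 CPM in CpG samples. On Cast it was at 27.9, 23.1 and 16.8 CPM and at 33.4, 25.9 and 25.4 CPM. The 129 groups were apart with CpG lower, and the Cast groups overlapped. The 129 value passed (-0.65, adjusted p = 0.0272), was lost without naive replicate 2, naive replicate 3, CpG replicate 2 or CpG replicate 3 (adjusted p up to 0.0921), and the Cast value did not pass (0.32, adjusted p = 0.262). Ddit3 encodes CHOP, the proapoptotic factor downstream of PERK and ATF4. It was at 10.3, 3.32 and 7.52 CPM in naive and 3.24, 4.61 and 3.14 CPM in CpG samples on 129, and at 5.27, 4.69 and 7.73 CPM and 2.84, 4.32 and 4.14 CPM on Cast. Naive replicate 2 was low on 129, where the groups overlapped, and on Cast the groups lay just apart. At 8 to 24 reads a sample neither allele passed (-0.93, adjusted p = 0.144, and -0.63, adjusted p = 0.184). Counts this low and the spread between samples both widen the error, and which of them matters more was not tested.

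Some of the ER genes took a share of Cast reads that differed more between replicate numbers than between treatments. For Pdia6 the Cast share was 52.6, 54.0 and 97.7% in naive and 52.8, 54.1 and 98.9% in CpG samples. For Manf it was 84.4, 85.2 and 43.5% and 85.7, 89.3 and 42.5%. For Dnajc3 it was 51.0, 49.4 and 83.1% and 49.1, 43.2 and 86.6%. In each of the 3 genes samples with the same number were within 10 points of each other, while numbers differed by more than 20 points. Atf6 had 84.2 and 82.2% in replicate 2 against 46.2 to 62.8% in the others. Of 37 autosomal ER genes that reached 10 reads in all 6 samples, 5 had a range above 20 points between numbers, the remaining one being Pdia3. Its range was 21.2 points, but it also differed by up to 20.2 points within a number, on 8 to 58 Cast reads. The same count over all autosomal genes is not given here, so it cannot be said whether the ER genes stand out. Among the rest the range between numbers ran from 0.105 points in Canx to 15.0 points in Ddost, and a share could lie far from 50% in all samples, as for Calr at 71.8 to 78.6%.

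Some of the genes beside these on the chromosome had shares that moved with the same number. The nearest genes with at least 50 mean reads around Dnajc3 were Abcc4, with a Cast share of 74.1 and 73.0% in replicate 3 and 44.3 to 56.3% in replicates 1 and 2, and Mbnl2, with 77.3 and 77.9% in replicate 3 and 46.7 to 57.0% in the others. Beside Pdia6, Nol10 was at 80.7 and 80.6% in replicate 3 and 55.1 to 61.5% in the others, while Pqlc3 was at 70.2 and 52.4% in replicate 3 and 36.5 to 58.8% in the others. Beside Manf, Rbm15b was at 48.8 and 52.6% in replicate 3 and 75.5 to 82.4% in the others, but Mapkapk3 was at 56.5% in naive and 77.8% in CpG replicate 3 and at 64.5 to 71.9% in the others. Beside Atf6, Uhmk1 was at 86.7 and 85.3% and Dusp12 at 78.0 and 64.1% in replicate 2, and both were at 47.4 to 57.1% in the others. The flanks therefore did not all move alike, Mapkapk3 being high in CpG replicate 3 where Manf was low. Over 19 neighbours of Dnajc3 together, however, the share was 49.1 to 57.9% in all samples. Over 20 neighbours of Pdia6 the share was 68.9 and 59.6% in replicate 3 and 45.3 to 49.5% in replicates 1 and 2. Over 20 neighbours of Manf it was 67.9 to 70.2% in replicates 1 and 2 and 52.1 and 50.6% in replicate 3, and over 20 neighbours of Atf6 it was 74.8 and 69.1% in replicate 2 and 50.9 to 55.7% in the others. What sets these shares was not tested. On the sum of both alleles the same genes separated by treatment: Pdia6 was at 152, 131 and 168 CPM in naive and 564, 479.7 and 557 CPM in CpG samples, a log2 fold change of 1.83 (SE 0.12, adjusted p = 1.57e-06). The summed values were 0.84 for Dnajc3 (adjusted p = 3.63e-04), 0.66 for Manf (adjusted p = 0.0200) and 1.47 for Atf6 (adjusted p = 9.92e-05).

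**Figure D3:**
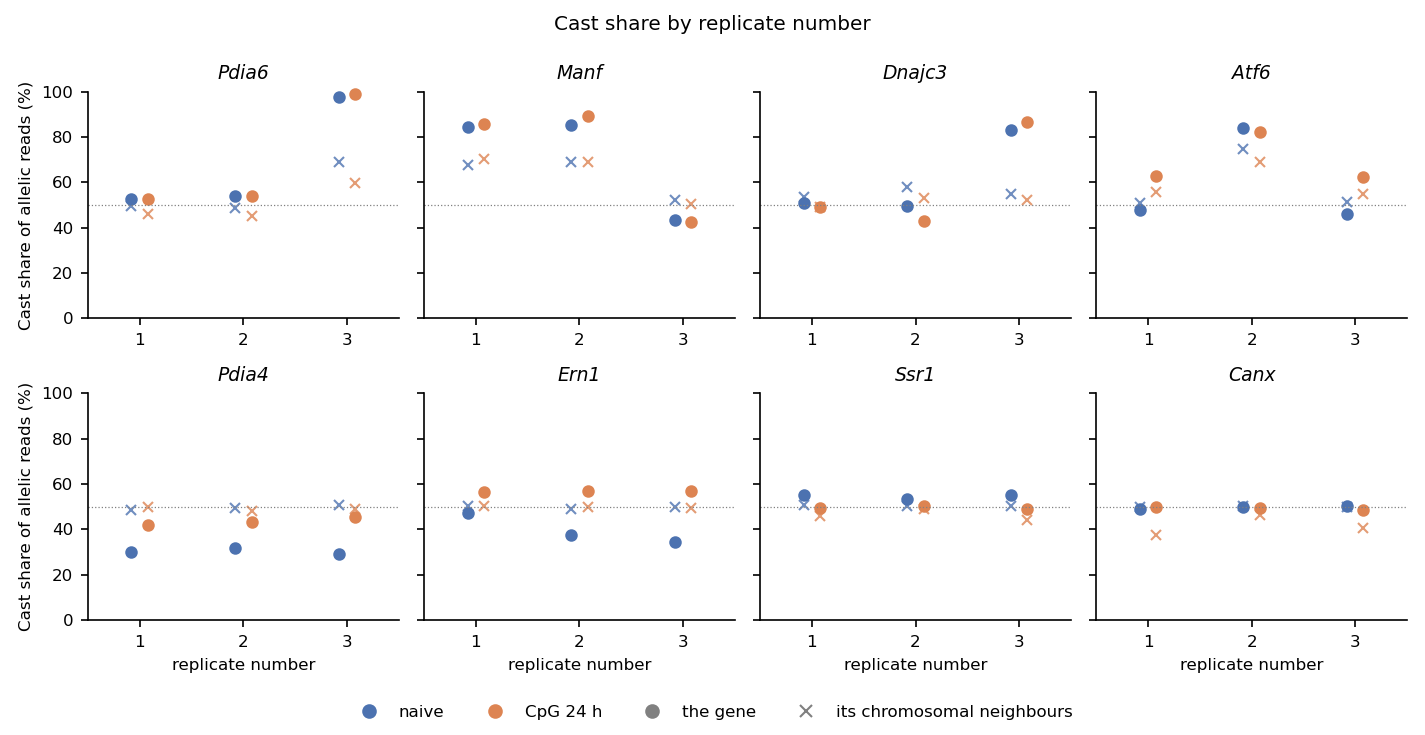
Cast share of allelic reads (y axis, percent) by replicate number for 8 genes, with circles for the gene and crosses for up to 20 chromosomal neighbours, in naive and CpG samples; the dotted line is at 50%. Pdia6, Dnajc3 and Manf depart in replicate 3 or replicates 1 and 2 whatever the treatment, while Pdia4, Ern1 and Ssr1 shift between naive and CpG samples at every number.

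Whether CpG changed the alleles differently was tested by the interaction of treatment and allele. Of 39 genes 1 passed, Pdia4, beside a background of 0.918% of 10343 genes. Pdia4 (ERp72), a disulfide isomerase, was on the 129 allele at 404, 256 and 314 CPM in naive and 379, 304 and 300.2 CPM in CpG samples. Cast levels were 150.3, 103 and 112 CPM and 238, 202 and 211 CPM. The 129 groups overlapped (log2 fold change 0.01, adjusted p = 0.955) and the Cast groups did not (0.83, adjusted p = 0.00152). Its Cast share was 29.8, 31.6 and 29.3% in naive and 41.8, 43.2 and 45.3% in CpG samples, and the interaction was 0.82 on the log2 scale (SE 0.10, adjusted p = 0.0174). The call was lost in each of the 6 fits that left out a sample (adjusted p from 0.0571 to 0.0923), with the value between 0.77 and 0.87.

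With the replicate number as a block 3 of 39 genes passed, beside a background of 7.58%: Pdia4, Ern1 and Ssr1. The Cast share of Ern1 was 47.4, 37.4 and 34.5% in naive and 56.4, 57.1 and 57.0% in CpG samples, an interaction of 0.98. That of Ssr1, the alpha subunit of TRAP, was 55.1, 53.6 and 55.4% and 49.6, 50.2 and 49.0%, an interaction of -0.29. Neither gene's shares overlapped between groups, and without the block neither passed (adjusted p = 0.175 and 0.178). Over 20 neighbours of Ssr1 the Cast share was 50.8, 50.2 and 50.1% in naive and 45.7, 49.1 and 44.2% in CpG samples, also without overlap. The groups overlapped for 20 neighbours of Pdia4 (48.1 to 50.7%) and of Ern1 (49.2 to 50.3%). What sets these shares was not tested.

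Ssr4 and Magt1 are on the X chromosome, and most of their reads came from the 129 allele: over all X-linked genes but Xist the Cast share was 6.60% ± 1.02 (SD, n = 3) in naive and 9.23% ± 0.311 (SD, n = 3) in CpG samples, beside 52.7% and 52.9% on the autosomes. Magt1, a thioredoxin-like subunit of the oligosaccharyltransferase that is also linked to magnesium handling in lymphocytes, rose on both alleles. It went from 249.5, 206 and 210.1 CPM to 473, 444 and 429 CPM on 129. On Cast it went from 19.2, 11.5 and 17.6 CPM to 45.4, 26.2 and 36.4 CPM. The groups did not overlap on either X (1.02, adjusted p = 2.74e-04, and 1.16, adjusted p = 0.00465). Its Cast share was 8.08, 6.06 and 8.91% in naive and 9.88, 6.35 and 9.09% in CpG samples, all with Wilson 95% intervals between 4.33 and 11.9%. The means of 7.69% ± 1.47 and 8.44% ± 1.85 (SD, n = 3 each) differed by 0.755 points (two-sided exact permutation test, p = 0.5), and by -0.0577 points without naive replicate 2. Within replicate numbers the share was higher after CpG in 3 of 3 pairs (two-sided exact paired permutation test, p = 0.25, the smallest that 3 pairs allow). In the authors' deposited table the ratio of the SRPM score of the inactive to that of the active X for Magt1, with SRPM not spelled out, was 0.0713 in naive and 0.0820 in stimulated cells.

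Ssr4, the delta subunit of TRAP, had 1, 2 and 7 Cast reads in naive and 2, 1 and 1 in CpG samples, and was not tested on that allele. On 129 it was at 27.1, 39.1 and 37.6 CPM in naive and 49.6, 54.2 and 34.6 CPM in CpG samples. These groups overlapped, CpG replicate 3 being low, and the value of 0.42 did not pass (adjusted p = 0.171). The Cast share was 1.56, 2.08 and 8.54% in naive and 1.43, 0.649 and 1.00% in CpG samples. The groups lay just apart, naive replicate 3 being the highest. The difference of means was -3.03 points (two-sided exact permutation test, p = 0.1, the smallest that 3 against 3 samples allow), and -0.797 points without naive replicate 3. The share was lower after CpG in 3 of 3 pairs (two-sided exact paired permutation test, p = 0.25). Adjusted over the 2 genes the unpaired p-values were 0.2 for Ssr4 and 0.5 for Magt1. Intervals cover counting error only.

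**Figure D4:**
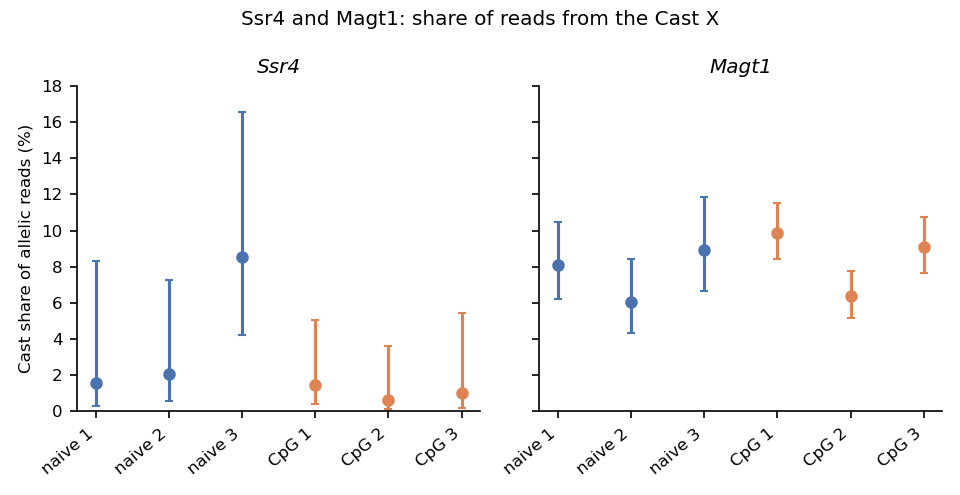
Cast share of allelic reads (y axis, percent) of Ssr4 and Magt1 in each of the 6 samples, with Wilson 95% intervals as bars. Magt1 stays between 6.06 and 9.88% in both groups, and the intervals of Ssr4 overlap between groups except for naive replicate 3, from 4.20%, and CpG replicate 2, up to 3.59%.

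The other genes of the pathway, 88 entries in 10 lists, moved less uniformly. On the 129 allele 34 of 73 tested passed (46.6%), 27 higher and 7 lower, with a median log2 fold change of 0.31. On Cast 35 of 73 passed (47.9%), 29 higher and 6 lower, with a median of 0.19. Both shares are below the background of all genes in either direction, 55.2% and 62.2%. That background was nearly even, 28.2% higher and 27% lower on 129 and 30.7% and 31.5% on Cast, whereas most calls in these lists were higher. No test of the difference from the ER genes was made.

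Of the lists closest to protein entry some genes rose. Shares in either direction were near or below the background of 55.2% on 129 and 62.2% on Cast except where given. In these lists every called gene was higher, but for 1 folding enzyme on each allele. Over all genes 28.2% on 129 and 30.7% on Cast passed as higher. The signal recognition particle, other oligosaccharyltransferase and glycan-trimming lists lay above those shares. The other translocon and COPII lists lay below them, and each list held few genes. Of the signal recognition particle and its receptor 3 of 6 passed on 129, all higher (Srprb 0.71, Srpr 0.68, Srp72 0.54), and 4 of 6 on Cast (66.7%). Of 5 other translocon genes only Tram1 passed, at 1.64 and 1.74. Of the other oligosaccharyltransferase genes 3 of 6 rose on 129 (Ostc 1.18, Stt3a 1.14, Krtcap2 0.97) and 5 of 8 on Cast. Stt3a is the catalytic subunit that works at the translocon. Of the glycan-trimming genes 2 of 5 rose on each allele, Mogs (glucosidase I) at 1.06 and 1.73 and Prkcsh at 0.94 and 0.70. Of the COPII coat, which carries cargo out of the ER, 2 of 12 rose on 129, the small GTPases Sar1b (1.23) and Sar1a (0.67), and 3 of 12 on Cast. Of the other folding enzymes 4 of 5 passed on 129 (80.0%; 3 higher, led by Dnajc10 at 1.39, and 1 lower, Txndc11 at -0.48) and 4 of 8 on Cast.

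Of the other degradation genes 8 of 14 passed on 129, 5 higher and 3 lower, and 6 of 14 on Cast, 4 higher and 2 lower. These shares of 57.1% and 42.9% were near the background of 55.2% on 129 and below that of 62.2% on Cast. Derl3, the Derlin of secretory cells, rose from 4.30, 2.91 and 5.01 CPM to 30.9, 30.8 and 39.8 CPM on 129 (3.05 on the log2 scale) and by 2.09 on Cast. Vcp, the ATPase that pulls substrates out of the membrane, rose by 1.76 and 1.40. Nploc4, a cofactor of Vcp, rose by 0.94 and 0.89, and Herpud2 fell by 0.92 and 0.99.

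Of the PERK and ATF4 branch 7 of 9 passed on 129 (5 higher and 2 lower) and 8 of 9 on Cast (6 higher and 2 lower), or 77.8% and 88.9% beside backgrounds of 55.2% and 62.2%. With the block 6 and 7 passed, beside backgrounds of 65.1% and 66.3%. Atf3 rose by 4.74 and 3.93, Asns (asparagine synthetase) by 3.60 and 4.19, and Trib3 by 3.17 and 1.92. Asns and Trib3 were highest in CpG replicate 2: Asns stood at 34.5, 260.2 and 129 CPM on 129. Ppp1r15a (GADD34), which reverses eIF2α phosphorylation and is named here after its values were seen, fell from 179.8, 81.9 and 235 CPM to 19.1, 30.8 and 19.2 CPM on 129 (-2.84), and by 2.90 on Cast. Ddit4 fell by 2.87 on 129 and 2.33 on Cast, and passed on neither allele with the block (adjusted p = 0.197 and 0.258); naive replicate 2, at 15.4 CPM on 129, was as low as CpG replicate 2 at 15.2 CPM. Of the XBP1 and ATF6 branch 2 of 5 passed on each allele (40%), below the backgrounds of 55.2% and 62.2%. Xbp1 rose from 102, 82.3 and 87.2 CPM to 222, 181 and 206 CPM on 129 (1.16) and by 0.87 on Cast, and Creb3l2 fell by 1.32 on 129. Gene counts do not show whether Xbp1 RNA was spliced. Of the X-linked secretory and glycosylation genes 2 of 7 rose on 129, Piga (1.37) and Alg13 (0.98). That share of 28.6% was about the 28.2% of all genes that passed as higher on 129. The 1 tested on Cast, Ogt, did not pass.

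**Figure D5:**
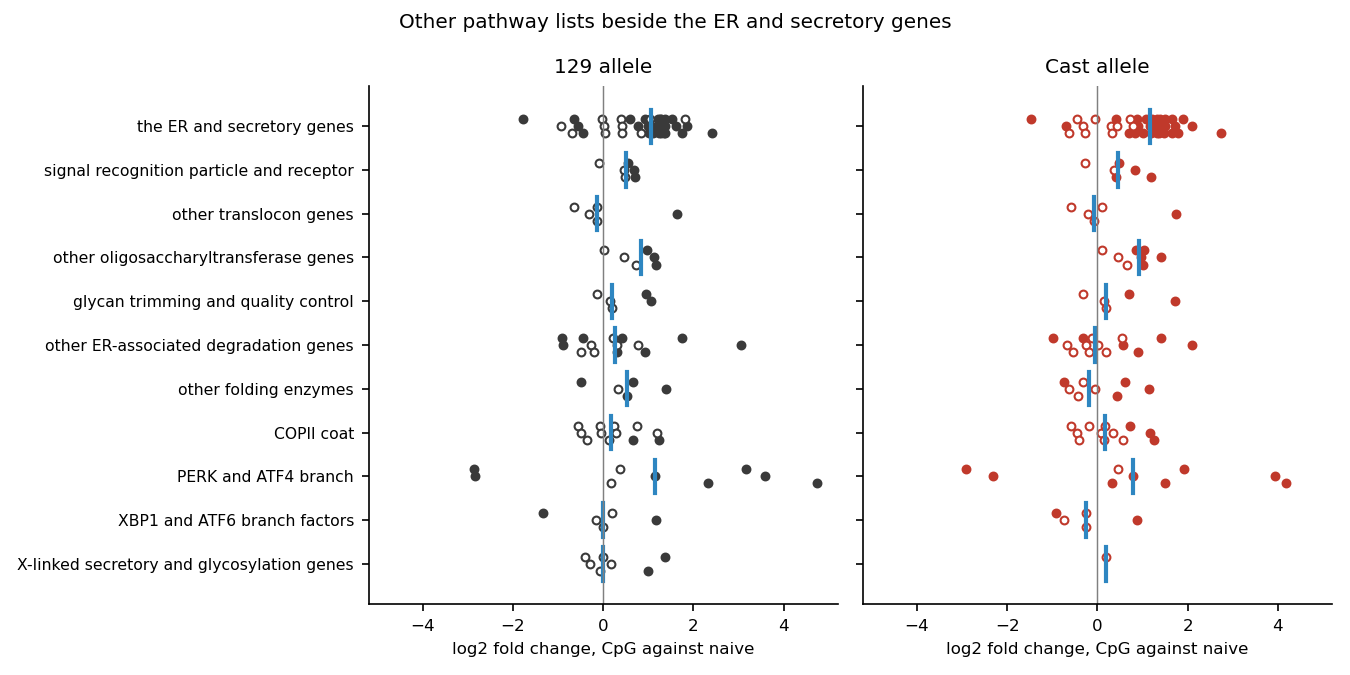
Log2 fold change of CpG against naive samples (x axis) for each tested gene of the ER and secretory set and of 10 other pathway lists, on the 129 and Cast alleles; filled circles passed an adjusted p of 0.05 and blue bars are medians. The ER and secretory set has medians of 1.06 and 1.16, and the PERK and ATF4 branch spans from -2.87 to 4.74 on 129.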

How the data were processed

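Total RNA of CD23+ splenic B cells was isolated with TRIzol and sequenced with a stranded TruSeq kit, per the labels' protocols. The deposited count tables give the reads of each gene for each sample and parental genome, and the submitters' processing notes name STAR, featureCounts, Subread 2.0.0 and mm10 without their order or settings. Gene counts totalled 1987266 to 3321753 a table, and rows with no gene symbol held 5.1 to 19.7% of gene reads. The authors' deposited table of X-linked genes gives mean RPKM values, a score called SRPM that is not spelled out, and the ratio of that score between the inactive and the active X, per the file headers.

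From the counts, edgeR 4.0.16 (R 4.3.3) was run on each allele's tables with TMM, filterByExpr, the robust quasi-likelihood test and Benjamini-Hochberg adjustment at 0.05. The change in allele ratio was the interaction of treatment and allele, with a term for each sample. Replicate numbers pair the samples: deviations from the group means of same-numbered samples correlated at 0.560, 0.443 and 0.608 on 129 and at 0.228, 0.163 and 0.246 on Cast over genes, and the number was used as a block in a second fit. Alternatives were other scalings and filters, DESeq2 1.42.0, a minimum log2 fold change of 1, and leaving out each sample. The fits were also run on simulated counts with samples drawn independently. That simulation holds no pairing by replicate number, so it cannot show how the fits behave under the pairing seen here. Named genes were the main chaperones, entry genes and sensors, the 5 others with the largest change, and up to 4 called genes of each other list. The genes and lists were chosen with earlier results of these data known. Promoters were RefSeq sequences. One further marker result is not reported here.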

Additional observations from a re-analysis of the deposited data

Results flagged for a closer look

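The change of Pdia4 after CpG differed between alleles in the fit of all 6 samples: Cast minus 129 was 0.82 on the log2 scale by the interaction of treatment and allele (edgeR, adjusted p = 0.0174), with a higher Cast share in 3 of 3 CpG samples than in any naive sample. The call was lost whichever sample was left out (adjusted p from 0.0571 to 0.0923), with the value between 0.77 and 0.87. How many of all genes had Cast shares without overlap is not given here. With the replicate number as a block, the difference between alleles also passed for Ern1 (0.98, adjusted p = 0.0119) and for Ssr1 (-0.29, adjusted p = 0.0494), where the Cast share was higher after CpG for Ern1 and lower for Ssr1 in all 3 numbers. The block called 3 of 39 ER genes beside 7.58% of all genes, which is about the same share, and without the block Ern1 and Ssr1 did not pass (adjusted p = 0.175 and 0.178).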

How the results depend on the processing

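With a minimum log2 fold change of 1, 12 of 39 ER genes passed on the 129 allele and 15 of 39 on Cast, because that test asks for a larger change. Over all genes 2525 of 10581 passed it on 129 and 2827 of 10365 on Cast. Leaving out 1 sample at a time gave 23 to 27 called ER genes on 129, 28 to 31 on Cast, and 0 for the allele ratio, where 3 to 5 genes had an unadjusted p below 0.05. Over all genes those fits called 5216 to 5477 of 10902 to 11126 on 129 and 5987 to 6319 of 10675 to 10854 on Cast. For the allele ratio they called 15 to 33 of 10621 to 10687. The replicate block gave 33 and 32 called genes and 3 for the allele ratio, and the pairing changed the calls of Dnajb9, Dnajc3, Pdia6, Edem1 and Atf6 on 129 and of Dnajc3, Manf and Ero1lb on Cast. For the X-linked shares pairing leaves the differences of -3.03 points for Ssr4 and 0.755 for Magt1 as they are by arithmetic, and the exact paired p was 0.25 for each, the smallest that 3 pairs allow. Without 1 sample, the 129 value of Manf ran from -0.67 to 1.62, with -0.00306 also below 0, the Ssr4 share difference from -4.28 to -0.797 points and that of Magt1 from -0.0577 to 1.80 points. The cause was not tested. Over all planned settings, 37 log2 fold changes were followed, of the genes chosen by name and the 5 others with the largest change. Of their values 477 kept direction and call, 17 gained the call, 21 lost it and 2 reversed, both of them for Manf on 129. The share differences and the other ER genes are outside this count. Among those, leaving out 1 sample changed the sign of the Magt1 share difference, of Pdia4 (-0.13 to 0.20) and Derl1 (-0.11 to 0.21) on 129, and of Derl2 on both alleles. Fits with no filter on low counts, and DESeq2, moved the median of all genes to between -0.16 and -0.20. Counts were low for Ddit3, with 8 to 24 reads a sample, and for Manf on 129, with 7 to 61. Their part in the precision, beside the spread between samples, was not tested.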
